A study of Owenia fusiformis with 9 samples.

Results

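The 2 gonads of adult *Owenia fusiformis*, a tube-dwelling annelid worm, were compared through 1 testis and 1 ovary RNA-seq library, out of 9 libraries in the series. Transcripts entered the comparison if their normalized value was 50 or more in either gonad, which held for 14481 of 31911 transcripts. The testis came from a single male and the ovary from a single female, both adults that were held in artificial sea water with mud and given algae as food, with no treatment named. The blood vessel library was labelled male, as were head plus chaetae and retractor muscle. The midgut, body wall, head and tail libraries were labelled female, the midgut from the same female as the ovary and the head and tail from a pool of 5 females. Testis and blood vessel came from the same male. The source text does not settle which worm gave the body wall, the head plus chaetae or the retractor muscle. The sex of the animal and the type of gonad cannot be told apart here, and neither can fewer cells of one type and less RNA per cell. Each tissue had 1 library, so no value below has a replicate, no test was run, and a fold difference describes a pair of libraries.

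The gonads of annelids make gametes that usually leave the organ early and ripen in the fluid of the body cavity. Spermatogenesis packs a haploid nucleus and builds a flagellum, and in many animals the testis expresses a large set of transcripts found in no other organ. Oogenesis instead fills the egg with yolk, ribosomes and messenger RNA that the embryo will use before its own genome is active. None of the identifiers of the deposited transcripts occurred in the 27038 genes of the reference table, so transcripts are given by identifier alone, without gene names, coordinates or sequences. For the same reason, the tissue labels could not be checked against marker genes of germ line, muscle or blood.

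The testis and retractor muscle libraries stood apart from the others in scale. The value of 1 read on the authors' normalized scale, estimated from the spacing of the low values, was 5.53 for testis, 2.75 for retractor muscle, 0.685 for ovary and between 0.595 and 0.948 in the 6 remaining libraries. The testis held about 22177997 reads and the ovary about 16474397. A normalized value of 50 therefore stood for 9.05 reads in the testis but 73.0 in the ovary, and values near the threshold are less precise in the testis. Of the testis values, 88.8% lay in 43 transcripts that each exceeded 0.1% of the column sum, and these took 75.3% of the retractor muscle and between 1.42% and 3.52% of the ovary and the other 6 libraries. Values were not corrected for transcript length, so that the order of transcripts within a library is an order of reads and not of molecules.

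Ovary and testis differed widely. On the deposited scale, taken as log2((testis + 10)/(ovary + 10)), 2531 transcripts (17.5% of those tested) were at least 4-fold higher in the testis and 3184 (22.0%) at least 4-fold higher in the ovary. The other 8766, or 60.5%, lay within 4-fold, and 5088 (35.1%) within 2-fold. The median log2 ratio was -0.19, with quartiles at -1.76 and 1.29. On this scale 161 transcripts were at least 256-fold higher in the testis and 57 at least 256-fold higher in the ovary, an order that was kept after the rescaling without dominant transcripts (147 and 59) and turned for shares of the column sum (41 and 77). The highest log2 ratio was 17.60 and the lowest -12.43.

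**Figure D1:**
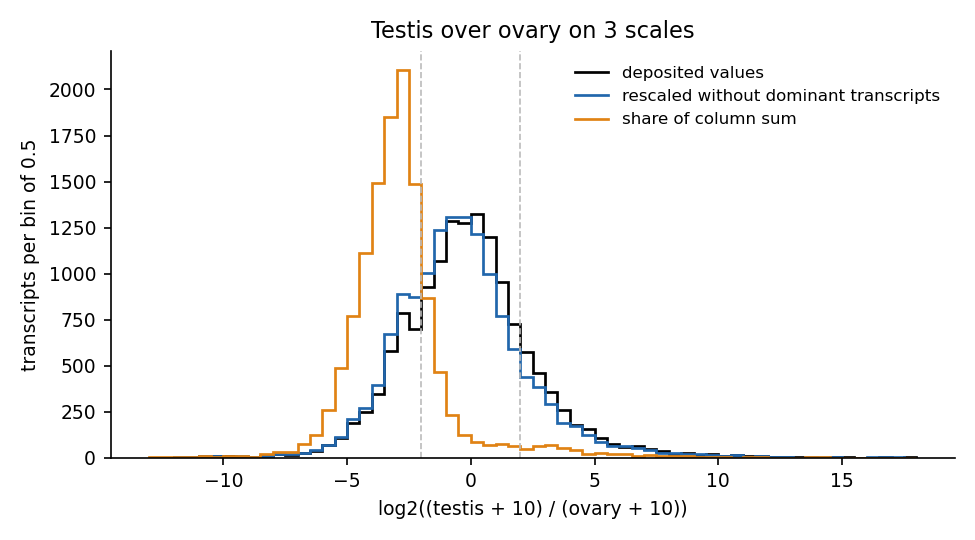
Number of tested transcripts per bin of 0.5 in log2((testis + 10)/(ovary + 10)), for the deposited values, after rescaling without the 43 dominant transcripts, and as shares of the column sum. Dashed lines mark 4-fold in either direction. The curves for deposited and rescaled values lie close together, with medians of -0.19 and -0.55, and the third is centred at -3.04.

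The balance between the gonads depended on the scale. When all columns were rescaled without the 43 dominant transcripts, so that their remaining sums equalled that of the ovary, testis values were multiplied by 0.801, a shift of -0.32 on the log2 scale. Of 14183 transcripts then tested, 2081 (14.7%) were at least 4-fold higher in the testis and 3667 (25.9%) in the ovary, and the median log2 ratio moved to -0.55. All 2081 were among those higher in the testis on the deposited scale, and 3184 of the 3667 among those higher in the ovary. At 16-fold, the order of the counts turned with the scale, with 882 transcripts higher in the testis and 767 in the ovary on the deposited scale against 773 and 835 after rescaling. As plain shares of the column sums, in which the dominant transcripts count, the testis was shifted by -3.44. Of 12331 transcripts then tested, 439 were at least 4-fold higher in the testis and 9907 in the ovary, and 16.1% lay within 4-fold. Expressed as the part of all 4-fold differences that favoured the testis, the deposited scale gave 44.3%, the rescaled values 36.2% and the shares 4.24%.

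Counting error bears unequally on the 2 directions. With approximate reads and an exact 95% Clopper-Pearson interval for the ratio, which covers counting error only and compares these libraries rather than the tissues, 2196 of the 2531 testis transcripts (86.8%) had an interval wholly past 4-fold. The same held for 1792 of the 3184 ovary transcripts (56.3%). In the testis direction, 409 transcripts rested on fewer than 20 testis reads, and 410 had no read in the ovary. In the ovary direction, each transcript had 20 or more ovary reads, and 1163 had no read in the testis, where 3 reads, the limit that a count of 0 allows, stand for a value of 16.6. When each transcript with no read in the other gonad was instead given its bound, the value divided by that limit with no pseudocount, the median log2 ratio of the ovary group was -2.77 in place of -3.08. That of the testis group, for which 3 ovary reads stand for 2.06, was 3.53 in place of 3.29. The bound differs from the ratio both in the limit and in the absence of the pseudocount, and these 2 changes were not separated. A pseudocount of 50 in place of 10 left 1532 transcripts higher in the testis and 1548 in the ovary.

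Close to the lower limit, the step of 1 testis read is visible. Between 45 and 50 in the higher gonad, outside the comparison, 429 transcripts had log2 ratios from -2.58 to 2.58, whereas the 214 between 50 and 55 had ratios from -2.70 to -0.02, since no whole number of testis reads falls in that window. At the 4-fold border, OFUSG26488.1 was just inside on the testis side, with 249 in the testis and 54.7 in the ovary, and OFUSG10215.1 just outside, with 105 and 18.9. On the ovary side, OFUSG06251.1 was just inside, with 332 in the testis and 1358 in the ovary, and OFUSG14451.1 just outside, with 5.53, a single read, and 52.1. The pseudocount thus keeps some larger raw ratios of low transcripts under the border.

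**Figure D2:**
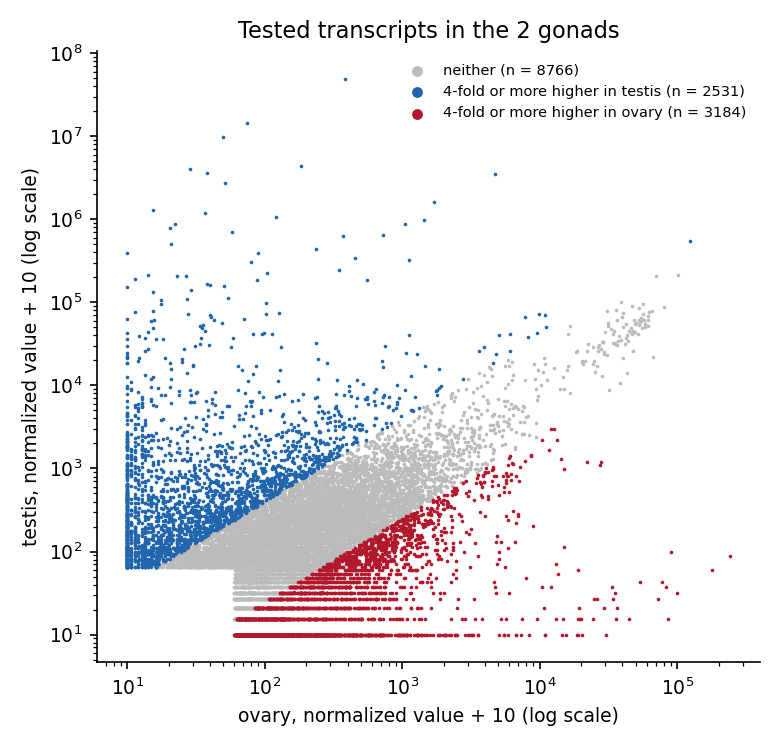
Normalized value plus 10 in the testis (vertical) against the ovary (horizontal), both on log scales, for the 14481 tested transcripts, with 1 library per gonad. The 2531 transcripts higher in the testis reach values above those of any ovary transcript, and the horizontal stripes at the bottom right are single testis reads, 5.53 apart.

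Transcripts higher in the testis were led by a few with extreme values. OFUSG10152.1 had the largest ratio, with 9857422 in the testis and 39.6 in the ovary, a 248634-fold difference (95% interval of counting error 191856 to 326626). In the soma it was highest in the blood vessel, at 177, and ranged from 22.2 to 51.7 over the other 5 libraries. OFUSG14386.1 followed, with 14491867 in the testis, 64.8 in the ovary and 57.5 to 178 in the somatic libraries. OFUSG14382.2 had the highest testis value, 49407470, which was 40.3% of that library, against 376 in the ovary and 132 to 795 in the soma.

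With 5 more transcripts, these made up the 8 with the largest ratios. OFUSG25563.1 had 4019618 in the testis, 18.5 in the ovary and at most 62.5, in the blood vessel, in the soma. OFUSG14971.2 had 1275115 in the testis against 5.46 in the ovary, about 8 reads, and at most 22.8, in the head plus chaetae. OFUSG25856.1 had 2740351 against 41.8, and OFUSG19182.1 790659 against 10.3. These 4 behaved alike in the soma, where their values lay between 0 and 147.

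OFUSG10512.1 differed from the others of this group. It had 3596366 in the testis, 28.0 in the ovary and between 11.3 and 65.3 in 5 somatic libraries, but 50259 in the head plus chaetae. All 8 were high in the retractor muscle, at 18.8% to 39.7% of their testis value. Among the 5 highest testis values was one further transcript, OFUSG14381.1, with 4406482 in the testis and a higher value, 5221737, in the retractor muscle. It had 173 in the ovary and at most 123 in the soma.

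**Figure D3:**
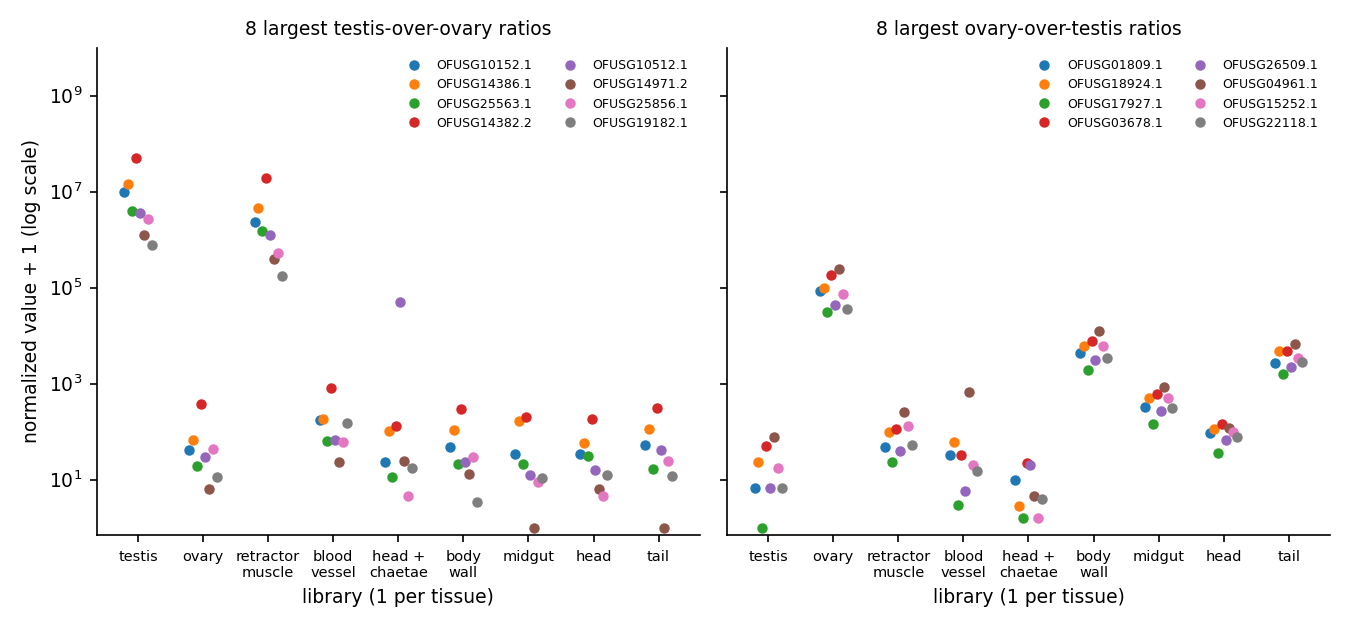
Normalized value plus 1, on a log scale, in each of the 9 libraries for the 8 transcripts with the largest testis-over-ovary ratio (left) and the 8 with the largest ovary-over-testis ratio (right). The left set is high in testis and retractor muscle, with 1 transcript at 50259 in head plus chaetae. The right set descends from ovary to body wall and tail, then midgut, with head and retractor muscle overlapping below.

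Transcripts higher in the ovary reached lower values. OFUSG01809.1 had the largest ratio, with 85484 in the ovary and 5.53 in the testis. That testis value is a single read, so the 15465-fold difference carries an interval from 2776 to 610834. OFUSG18924.1 had 99799 in the ovary and 22.1 in the testis, and OFUSG17927.1 had 30617 in the ovary and no testis read. Its ovary value was 1846-fold the limit of 3 testis reads, and the lower end of its 95% interval was 1501-fold. OFUSG03678.1 had 179433 against 49.7, and OFUSG26509.1 44464 against 5.53.

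Among transcripts higher in the ovary, the highest ovary value was that of OFUSG04961.1. It had 240987 in the ovary, 2.13% of that library, and 77.4 in the testis. OFUSG15252.1 had 72458 against 16.6, and OFUSG22118.1 had 35928 against 5.53. OFUSG18429.1, among the 5 highest ovary values of the transcripts higher in the ovary, had 89831 against 88.4. These transcripts shared a graded presence in the body wall, tail and midgut, which were labelled female. Over the 8 with the largest ratios, the value relative to the ovary was 4.21% to 9.70% in the body wall, 2.70% to 7.79% in the tail, 0.334% to 0.867% in the midgut and 0.0489% to 0.215% in the head. It was at most 0.283% in the blood vessel, 0.179% in the retractor muscle and 0.0432% in the head plus chaetae, the libraries labelled male. In body wall and tail, this percentage varied less than 3-fold among the 8 transcripts. The part of ovary tissue or eggs in those libraries was not tested.

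The same measure was taken over all transcripts that were higher in a gonad and reached 10000 there. For the 50 such ovary transcripts, the median value relative to the ovary was 6.68% in the body wall (quartiles 5.54% and 9.78%), 5.09% in the tail, 0.539% in the midgut and 0.199% in the head. It was 0.0996% in the blood vessel, 0.132% in the retractor muscle, 0.0240% in head plus chaetae and 0.0457% in the testis. A minority did not follow the gradient and exceeded the ovary elsewhere, up to 1743% in the tail.

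For the 146 testis transcripts that reached 10000, the median was 37.8% in the retractor muscle (quartiles 24.2% and 56.9%). For head plus chaetae it was 0.812%, with quartiles far apart at 0.00265% and 2.48%. In the blood vessel it was 0.0135%, and it lay between 0.00273% and 0.00952% in the 4 libraries labelled female other than the ovary. A minority exceeded the testis value in the soma, up to 3048% in the blood vessel, 301% in the head and 214% in the midgut. In the ovary the median was 0.0568%. Each of the 146 had reads in the retractor muscle. Among the libraries labelled male, the median was thus lowest in the blood vessel, which came from the same worm as the testis. Whether testis tissue or sperm was present in the retractor muscle and head plus chaetae was not tested.

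**Figure D4:**
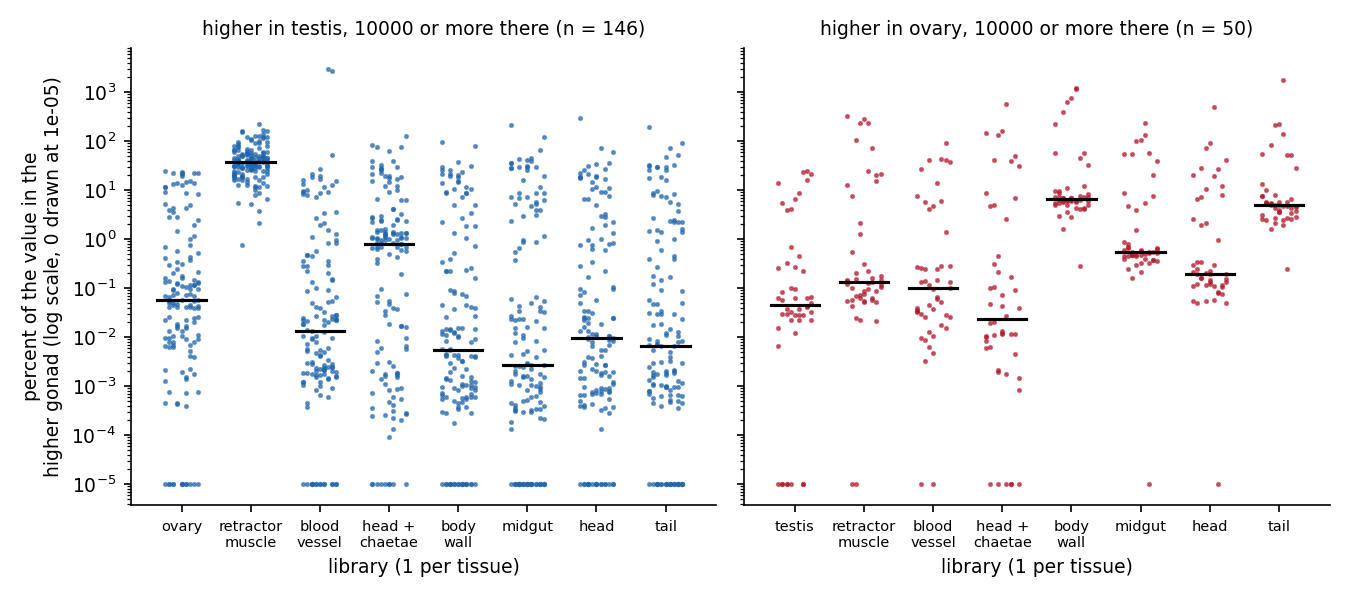
Value in each other library as a percentage of the value in the higher gonad, on a log scale, for transcripts at least 4-fold higher in testis (left, n = 146) or ovary (right, n = 50) and at 10000 or more there. Points are transcripts, black lines medians, and values of 0 are drawn at 1e-05. Testis transcripts have medians of 37.8% in retractor muscle and 0.812% in head plus chaetae, ovary transcripts 6.68% in body wall and 5.09% in tail.

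The 6 somatic libraries, which leave out the retractor muscle, showed which gonad departed from the rest of the body. Of the transcripts higher in the testis, 1408 (55.6%) lay at least 4-fold above the median of the somatic libraries in the testis while the ovary was not 4-fold below it. The reverse, an ovary at least 4-fold below the somatic median without a raised testis, held for 424 (16.8%). Both held for 90, and neither for 609 (24.1%). Of the transcripts higher in the ovary, 1147 (36.0%) were raised in the ovary alone and 1168 (36.7%) lowered in the testis alone, with both in 178 and neither in 691. On the deposited scale, a higher value in the ovary thus went with a low testis about as often as with a high ovary. A higher value in the testis mostly went with a raised testis. This split was not repeated on the other scales, on which testis values are lower. Of the transcripts higher in the ovary, 1163 (36.5%) had no testis read, where a count of 0 allows a value up to 16.6. Entering these as 0 can raise the number counted as lowered in the testis, and the split was not recounted at that limit. Among transcripts within 4-fold, 3.54% were raised in the testis alone, 3.45% lowered in the ovary alone and 93.0% neither. A 4-fold difference between the gonads by itself makes such departures more frequent. The median departure in the testis group was 2.42 for the testis and -0.81 for the ovary, and in the ovary group 1.68 for the ovary and -1.60 for the testis, all as log2 against the somatic median.

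**Figure D5:**
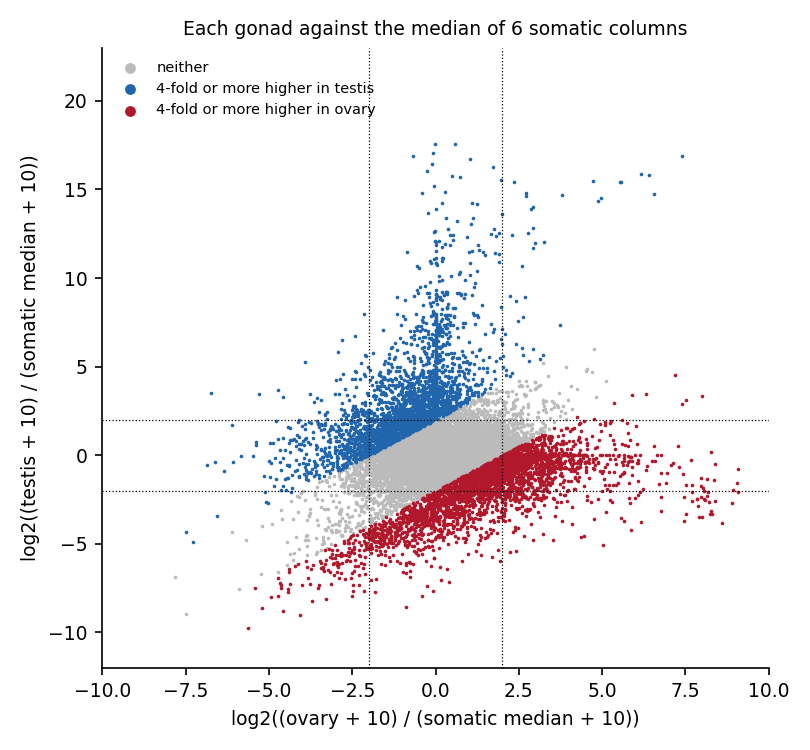
Departure of the testis (vertical) and the ovary (horizontal) from the median of the 6 somatic libraries on the deposited scale, as log2((gonad + 10)/(median + 10)), for the 14481 tested transcripts. Dotted lines mark 4-fold. Transcripts higher in the testis spread mainly upwards, with 55.6% raised in the testis alone, while those higher in the ovary spread both to the right and downwards, with 36.0% raised in the ovary alone and 36.7% lowered in the testis alone.

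Breadth across the soma was lower for transcripts that differed between the gonads, in either direction. Among transcripts within 4-fold between the gonads, 62.2% reached 50 in all 6 somatic libraries and 2.02% in none. Among those higher in the testis, 24.7% reached it in all 6 and 17.7% in none. Among those higher in the ovary the shares were 25.6% and 9.05%. Where a testis transcript had any somatic read, its highest somatic library was head plus chaetae for 626 (25.03%), blood vessel for 587 (23.5%) and midgut for 553 (22.1%). For the ovary transcripts it was the blood vessel for 1069 (33.7%) and the body wall for 511 (16.1%). Among transcripts within 4-fold, the corresponding shares were 11.7% for head plus chaetae, 38.6% for blood vessel, 20.6% for midgut and 11.4% for body wall, so that the blood vessel led in that group too and with a larger share.

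A narrower group was at least 4-fold above the highest of the 6 somatic libraries. In the testis this was so for 740 of all tested transcripts (5.11%), of which 702 were also higher in the testis than in the ovary. In the ovary it was so for 381 (2.63%), of which 345 were higher in the ovary. The 702 testis transcripts took 91.6% of the testis values, and the 345 ovary transcripts 17.2% of the ovary values. Of the 702, 336 were under 50 in all 6 somatic libraries and 30 had no read in any of them, against 149 and 9 of the 345. The testis count was 608 and the ovary count 369 after rescaling. The ovary count depended most on the blood vessel, without which it was 721, and the testis count rose to 921 without that library. With the retractor muscle among the somatic libraries, 341 testis and 322 ovary transcripts remained above all of them.

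The share of such transcripts rose with the value in the gonad. Among transcripts higher in the testis, it was 7.94% for testis values of 50 to 100, 15.8% from 100 to 1000, 54.5% from 1000 to 10000 and 79.4% from 10000 to 100000. Of the 44 at 100000 or more, 43 were above all 6 somatic libraries. Among transcripts higher in the ovary, the shares were 3.07%, 9.80%, 21.5% and 72.9% in the same classes, and both transcripts at 100000 or more were above the soma. A 4-fold excess over somatic values is harder to reach for a low transcript because of the pseudocount, so the lowest classes are bound to hold fewer.

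The transcripts with the largest excess over the soma in the ovary were of several kinds. OFUSG20018.2, with 15655 in the ovary and no testis read, had 44.5 in the blood vessel, 44.0 in the body wall, 38.7 in the tail and no read in midgut, head and head plus chaetae. OFUSG21587.1, with 1825 in the ovary and 71.9 in the testis, did not exceed 5.70 in any somatic library, so that both gonads lay above the soma. OFUSG02369.1 and OFUSG00823.1, with 3521 and 1970 in the ovary, had no read in the testis or retractor muscle and at most 30.8 in the soma. OFUSG19867.1, with 7386, had 1 testis read and at most 83.5, in the tail. Of the 5 testis transcripts with the largest excess, 4 belong to the 8 above. The other, OFUSG14142.1, had 3484425 in the testis and at most 36.1 in the soma, with 4732 in the ovary.

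Few transcripts set both gonads above the body. Of 8302 transcripts at 50 or more in both gonads, 21 (0.253%) had even their lower gonad at least 4-fold above all 6 somatic libraries. Of the 21, 15 were also higher in the testis and 2 in the ovary. The 4 with the largest excess were all testis transcripts with a far lower, but clear, ovary value. Besides OFUSG14142.1 these were OFUSG10513.2, with 320788 in the testis, 1107 in the ovary and at most 12.0 in the soma, OFUSG10154.1, with 991694, 1440 and at most 19.9, and OFUSG14186.1, with 652142, 709 and at most 6.73. Their testis-over-ovary folds were 289.9 to 919.7, against 131454 for OFUSG14382.2. The 4 were picked for a lower gonad far above the soma, while OFUSG14382.2 is among the largest ratios. Such a choice sets these folds apart by itself, so no conclusion is drawn from the contrast.

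At the abundant end, few transcripts passed 0.1% of the column sum in both gonads. Of the 43 transcripts above 0.1% of the testis, 41 were at least 4-fold higher in the testis and 2 lay within 4-fold. Of these 41, each was at 1000 or more in the retractor muscle, 7 in the head plus chaetae, 6 in the ovary, 2 in the blood vessel and 1 in each of the other 4 libraries. The ovary had no such concentration. There, 143 transcripts exceeded 0.1% and together took 49.9% of the values, of which 45 were at least 4-fold higher in the ovary, 1 higher in the testis and 97 within 4-fold, and the 143 took 18.5% to 24.7% of the 6 somatic libraries. Of all tested transcripts, 17.5% were at least 4-fold higher in the testis, 22.0% in the ovary and 60.5% within 4-fold. Only 3 transcripts exceeded 0.1% in both gonads. The column sums were 122592193 in the testis and 11289085 in the ovary, so the limit is a far higher value in the testis. This alone keeps the overlap small, and no conclusion is drawn from it.

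In some genes the gonads used different isoforms, taking as a gene all transcripts that share the number before the point. Of 1099 genes with 2 or more tested isoforms, 184 (16.7%) had 1 isoform at least 4-fold higher in the testis and another at least 4-fold higher in the ovary, and in 153 of these the summed gene lay within 4-fold. OFUSG11791.5 had 3952 in the testis and 25.2 in the ovary, and OFUSG11791.2 no testis read and 1016 in the ovary. OFUSG22785.1 had 956 in the testis and no ovary read, and OFUSG22785.2 no testis read and 1877 in the ovary. OFUSG17135.1, with 829 in the testis, had no read in the ovary or in any of the 6 somatic libraries and 346 in the retractor muscle, while OFUSG17135.4 had 2252 in the ovary and up to 1927, in the blood vessel, in the soma. OFUSG17452.4 had 1713 in the testis and no ovary read, against 703 in the ovary and no testis read for OFUSG17452.1. In each pair the ovary isoform had reads in all 6 somatic libraries. So did the testis isoform OFUSG11791.5, from 35.9 in the blood vessel to 634 in the midgut. In the soma, OFUSG22785.1 had reads only in the blood vessel, at 102, and in the head, at 39.5. OFUSG17452.4 had 105 in the midgut, 44.9 in the head and 13.2 in the head plus chaetae. Pseudo-alignment divides reads that fit several isoforms by estimation, so values of single isoforms are less certain than those of genes with 1 transcript.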

How the data were processed

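RNA was extracted from 9 dissected adult tissues and sequenced on a BGISEQ-500. The authors pseudo-aligned trimmed reads to their gene models with kallisto and normalized the read counts with DESeq2 (kallisto 0.44.0, DESeq2 1.34.0 and R 4.1.2 in the submitters' processing notes). Each deposited value is a normalized signal of 1 transcript in 1 library, close to the read count times a library factor, with small deviations specific to a transcript. The sources used here do not say how kallisto estimates were handed to DESeq2.

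Ratios were log2((testis + 10)/(ovary + 10)) over transcripts of 50 or more in either gonad, and 4-fold or more was the limit for a difference. The value of 1 read was the least-squares step of values up to 20 reads. In the testis 100% and in the ovary 96.1% of these lay within 0.1 read of a whole number. Recovered reads served only for counting intervals. Total reads ranged from about 14608988 to 22177997. No test was made, as each tissue has 1 library. Members and lists were chosen with earlier results of these data known.

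Transcripts named were, in each direction, the 8 with the largest ratio and the 5 highest values among those higher in that gonad. Also named in each direction were the 5 with the largest excess over the soma. So were the 3 nearest the 4-fold limit on either side (the nearest is printed). The 4 largest excesses in both gonads and the 4 strongest isoform pairs were named besides. As a check of the code on simulated reads, 200 of 200 planted 16-fold differences were recovered among 5944 transcripts with ovary values of 200 or more. It does not bear on calls near 4-fold or near a value of 50. Alternatives were other scalings, pseudocounts of 1 and 50, minimums of 10 and 200, limits of 2-fold and 16-fold, summed isoforms and other somatic backgrounds. A minimum of 20 reads and a background without body wall and tail were added after seeing the data. Python 3.11.15, numpy 2.4.6, pandas 2.3.3, scipy 1.17.1 and matplotlib 3.10.9 were used.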

Additional observations from a re-analysis of the deposited data

Results flagged for a closer look

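The retractor muscle library was kept out of the somatic background, and testis transcripts were present in it above that background far more often than tested transcripts in general. Of the 702 testis transcripts at least 4-fold above all 6 somatic libraries, 372 (53.0%) were also at least 4-fold above them in the retractor muscle. Among all 14481 tested transcripts 464 (3.20%) were, and these 464 include the 372. Both counts use the somatic libraries by which the 702 were chosen. Over the 702, the retractor muscle value was a median of 24.6% of the testis value (quartiles 10.6% and 46.2%). Of them, 65 were higher in the retractor muscle than in the testis and 74 were under 10 in it. Of the 345 corresponding ovary transcripts, 8 (2.32%) were also above the soma in the retractor muscle. Most of the 3.20% comes from the testis transcripts, so it is no neutral background for that share. Over the 345, the retractor muscle value was a median of 0.246% of the ovary value.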

How the results depend on the processing

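With 1 library per tissue, no leave-one-out of a replicate could be made, and no paired analysis was possible because no group has a second library. The counts of 2531 testis and 3184 ovary transcripts were within 1.5 times under a pseudocount of 1, a minimum of 10, summed isoforms, rescaling and 20 reads or more in the higher gonad. A pseudocount of 50 gave 1532 and 1548, shares of the column sum 439 and 9907, limits of 2-fold and 16-fold 4209 and 5184 or 882 and 767, and a minimum of 200 left 1784 ovary transcripts. The median log2 ratio of -0.19 moved to -0.55 after rescaling, -3.04 with shares, -0.32 with a minimum of 10, -0.15 with a minimum of 200 and -0.47 with 20 reads or more. The 702 testis transcripts above the soma became 236 with shares, 341 with retractor muscle added and 1498 against the somatic median. The 345 ovary transcripts became 227 with a pseudocount of 50, 721 without the blood vessel and 1325 against the somatic median. Without body wall and tail they were 428. Other somatic libraries left out singly kept both counts within 1.5 times. Of 188 values of named transcripts under other scalings and pseudocounts, 180 stayed on their side of the 4-fold limit or within counting error and 5 moved. The other 3, at least 4-fold on the deposited scale, changed sign as shares of the column sum, to -0.91 for OFUSG16369.2, -0.95 for OFUSG24304.1 and -0.97 for OFUSG26488.1, all just inside the limit. Another 3, just outside it and still within 4-fold, also changed sign as shares, OFUSG20698.1 to -1.35, OFUSG04435.2 to -1.21 and OFUSG10215.1 to -0.55. These changes follow from the multiplication of testis values by a single factor.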

Other observations

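Transcripts above the soma in the testis often had consecutive identifier numbers. Of 13190 tested genes, 654 (4.96%) held such a transcript, but of the 428 of these whose next number was also tested, 93 (21.7%) were followed by another. For the 330 corresponding ovary genes (2.50% of those tested), 20 of 182 (11.0%) were. For all genes with a transcript higher in the testis or higher in the ovary, which made up 17.9% and 23.2%, the next number was in the same group for 29.7% and 28.8%. The sources used here do not give whether numbers follow positions on the chromosomes, and reads shared between similar copies were not examined.

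The longest run, singled out after its values were seen, spanned 9 genes from OFUSG10146 to OFUSG10154, and all 13 of their transcripts were above the soma in the testis. Testis values ran from 1769 for OFUSG10146.2 to 9857422 for OFUSG10152.1, the transcript with the largest testis-over-ovary ratio, and 503179 for OFUSG10148.1. Among the 13, OFUSG10154.1 with 1440 was the highest in the ovary and the other 12 were at most 88.8. In the soma, OFUSG10150.2 reached 628 in the head plus chaetae, OFUSG10152.1 reached 177 in the blood vessel, and no other exceeded 21.8. OFUSG10147.1, OFUSG10150.1 and OFUSG10153.1 had higher values in the retractor muscle than in the testis, such as 134496 against 107014 for OFUSG10153.1. In OFUSG10146.1, with 4604 in the testis, no other library had a read. In all, 17 runs of 3 or more genes held 59 of the 654.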
